A study of Mus musculus with 16 samples.

Results

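Osteoclasts carrying an internal tandem duplication of Flt3 (FLT3 ITD) were compared with wild-type osteoclasts (WT) across all measured genes. The comparison uses 8 of the 16 RNA libraries of the series, chosen by their genotype label: 4 of FLT3 ITD and 4 of WT. The other 8 libraries were 4 of FLT3 ITD Ptprc KO and 4 of Ptprc KO, with a knockout of Ptprc, which encodes the phosphatase CD45. They gave a second comparison of the same receptor change, with no library shared but with the spread estimated over all 16. All mice were C57BL/6J, and FLT3 ITD is a knock-in allele. CD11b-positive bone marrow cells were grown with M-CSF at 50 ng/ml for 3 days, followed by RANKL at 20 ng/ml, and harvested for RNA once mature osteoclasts could first be seen (day 3 to 5). Each library is therefore bulk RNA of a mixed culture, in which fewer cells of a type and less RNA per cell cannot be told apart. Whether each replicate is a separate animal or a separate culture is not stated, so p-values measure only the spread between these libraries, which may be technical.

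FLT3 is a receptor tyrosine kinase of blood stem and progenitor cells and of dendritic cell precursors. The internal tandem duplication, a common lesion of acute myeloid leukaemia, leaves the receptor active without its ligand and feeds STAT5, PI3K and ERK signalling. Osteoclasts are multinucleated bone-resorbing cells that form by fusion of myeloid precursors, and the same precursors can become macrophages or dendritic cells.

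The 8 libraries held 25011720 to 35773313 counts, and 12093 of the 21936 listed genes passed the filter on low counts. The label of osteoclasts fitted the markers: Ctsk, the main collagen-degrading protease of osteoclasts, stood at 12258, 18506, 11778 and 4203 CPM (counts scaled to the library total) in FLT3 ITD replicates 1 to 4, and at 7302, 9366, 7856 and 8103 CPM in WT replicates 1 to 4. Flt3 itself was near the limit of detection, at 0.345, 0.433, 0.406 and 0.833 CPM in FLT3 ITD and 1.42, 0.69, 0.309 and 0.284 CPM in WT (log2 fold change -0.43, SE 0.60), so these counts check nothing about the allele. Ptprc stood at 416, 230, 414 and 543 CPM in FLT3 ITD and at 472, 412, 464 and 469 CPM in WT. Reads of Ptprc were fewer but remained in the knockout libraries. It stood there at 54.1, 86.7, 63.8 and 54.5 CPM in FLT3 ITD Ptprc KO and at 41.5, 36.6, 30.8 and 45.8 CPM in Ptprc KO (log2 fold change 0.74, SE 0.23, adjusted p = 0.190, edgeR).

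The 4 FLT3 ITD libraries were far from evenly spaced. Replicates 1 and 3 were the closest pair of all 16 libraries, with a chi-square per gene of 2.74, against 12.8 in the next closest pair. A value near 1 is expected of sampling noise alone, so they differed by more than that. A pair of libraries made from 1 culture can also exceed sampling noise, so the value does not show whether these came from separate cultures. They were kept as separate libraries, with their sum tried as an alternative. If they share a culture, FLT3 ITD has 3 independent samples rather than 4, and every SD, SE and p-value given for it rests on 1 sample fewer than stated. In replicate 2 the values fell with gene length (Spearman rho -0.460 across genes, against -0.181 to 0.167 in the other 7 libraries). Replicate 4 had the lowest osteoclast and the lowest cell cycle levels of the 8 libraries and the highest levels of C1q, MHC class II and neutrophil genes. The median SD of a gene was 0.435 on the log2 CPM scale in FLT3 ITD (0.295 without replicate 4) and 0.195 in WT.

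Across all genes the change was small in number. With edgeR's quasi-likelihood test and Benjamini-Hochberg adjustment, 5 of 12093 genes passed an adjusted p of 0.05 (0.0413%): Cdh13, Wdfy1 and Lzts2 rose, and Paqr9 and Vsig4 fell. At an unadjusted p under 0.05 there were 1022 genes (8.45%), of which 632 had higher values in FLT3 ITD (5.23%) and 390 had lower ones (3.23%). In 736 genes the 4 libraries of one group lay wholly above or below those of the other (6.09%), 349 with FLT3 ITD higher (2.89%) and 387 with it lower (3.20%). The median log2 fold change over all genes was 0.04. DESeq2 called 60 genes, 25 higher and 35 lower in FLT3 ITD, including all 5 of edgeR's. Of the 28 other genes named for a low unadjusted p, none passed with edgeR, and DESeq2 called 16, 7 higher and 9 lower in FLT3 ITD. Adjusted p-values are edgeR's unless DESeq2 is named.

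**Figure D1:**
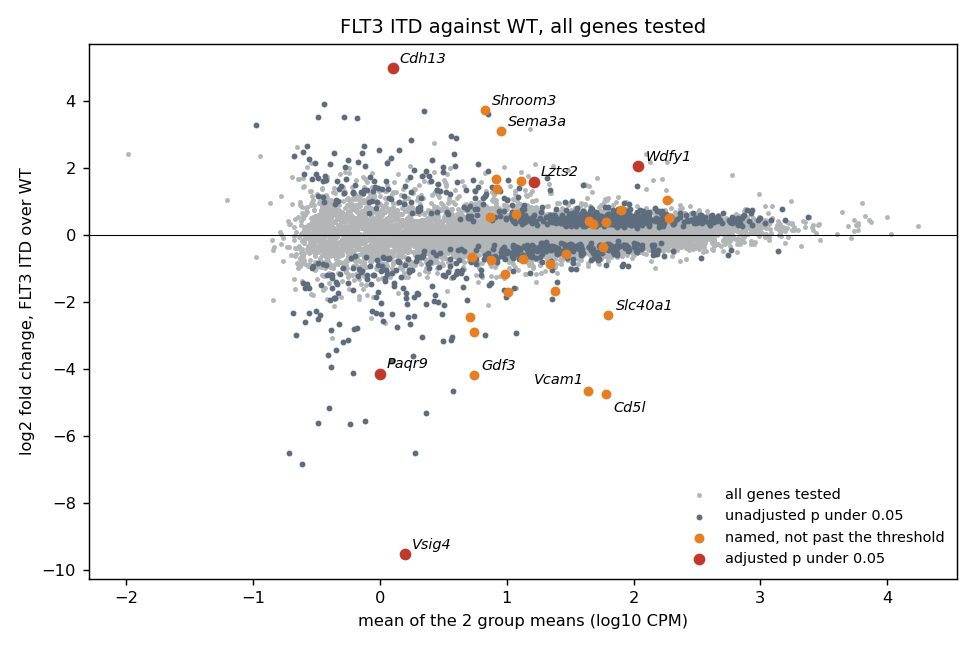
Log2 fold change of FLT3 ITD over WT (y axis) against the mean of both group means in log10 CPM (x axis) for the 12093 genes tested. Red points are the 5 genes past an adjusted p of 0.05, orange points the other named genes, and dark points all genes at an unadjusted p under 0.05; the position of Vsig4 depends on the prior count, since all 4 FLT3 ITD libraries had 0 counts.

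Cdh13, which encodes T-cadherin, a lipid-anchored cadherin that binds adiponectin, was almost silent in WT and present in every FLT3 ITD library. It stood at 3.01, 2.34, 2.91 and 1.54 CPM in FLT3 ITD replicates 1 to 4, against 0.0346, 0.0265, 0.0687 and 0.178 CPM in WT. The groups were separated by a wide gap, and replicate 4, which stood apart in so many other genes, was high as well. This gave a log2 fold change of 4.96 (SE 0.60; edgeR adjusted p = 0.00921; GRCm38 chromosome 8, 118283733 to 119324921). It was the most stable of the 5 calls: it passed in 6 of the 8 fits that left out 1 library, and failed without WT replicate 1 (adjusted p = 0.0783) and without WT replicate 3 (adjusted p = 0.0982).

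Wdfy1, an endosomal FYVE-domain protein that serves Toll-like receptor signalling, was the most abundant of the 5. It stood at 190, 211, 179 and 121 CPM in FLT3 ITD and at 43.8, 37.9, 39.2 and 50.5 CPM in WT. All 4 FLT3 ITD libraries also lay above the 8 libraries with the Ptprc knockout, which ranged over 36.7 to 97.0 CPM. This is a log2 fold change of 2.03 (SE 0.28; edgeR adjusted p = 0.0207; chromosome 1, 79702262 to 79776143). Wdfy1 overlaps Mrpl44 on the other strand, a mitochondrial ribosomal protein gene whose own log2 fold change was 0.30 (SE 0.24), and whether reads were counted by strand is unknown here.

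Lzts2, a leucine zipper protein that restrains beta-catenin signalling, stood at 24.1, 31.8, 25.1 and 17.4 CPM in FLT3 ITD and at 7.92, 7.35, 6.60 and 10.9 CPM in WT. The lowest FLT3 ITD library was thus above every WT library, and above every library of the other genotypes too. That is a log2 fold change of 1.58 (SE 0.25; edgeR adjusted p = 0.0436; chromosome 19, 45014414 to 45027111). Lzts2 overlaps Pdzd7 on the other strand.

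Paqr9, a membrane protein of the progestin and adipoQ receptor family, fell to 0.0627, 0.130, 0.0625 and 0.167 CPM in FLT3 ITD, against 1.00, 0.690, 2.30 and 3.55 CPM in WT (log2 fold change -4.15, SE 0.66, adjusted p = 0.0436, edgeR; chromosome 9, 95559657 to 95568023). Vsig4, the complement receptor CRIg of tissue macrophages, had 0 counts in all 4 FLT3 ITD libraries and stood at 1.97, 0.849, 4.50 and 5.33 CPM in WT, 370 counts in all. Against a floor of 3 counts over the group it was at least 111-fold lower (adjusted p = 0.0436, edgeR; chromosome X, 96247203 to 96293438). Wdfy1, Lzts2, Paqr9 and Vsig4 each passed in only 1 of the 8 fits that left out 1 library, at adjusted p-values of 0.0119 to 0.270 over those fits. With FLT3 ITD replicates 1 and 3 summed into 1 library only Cdh13 passed (adjusted p = 0.0417).

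**Figure D2:**
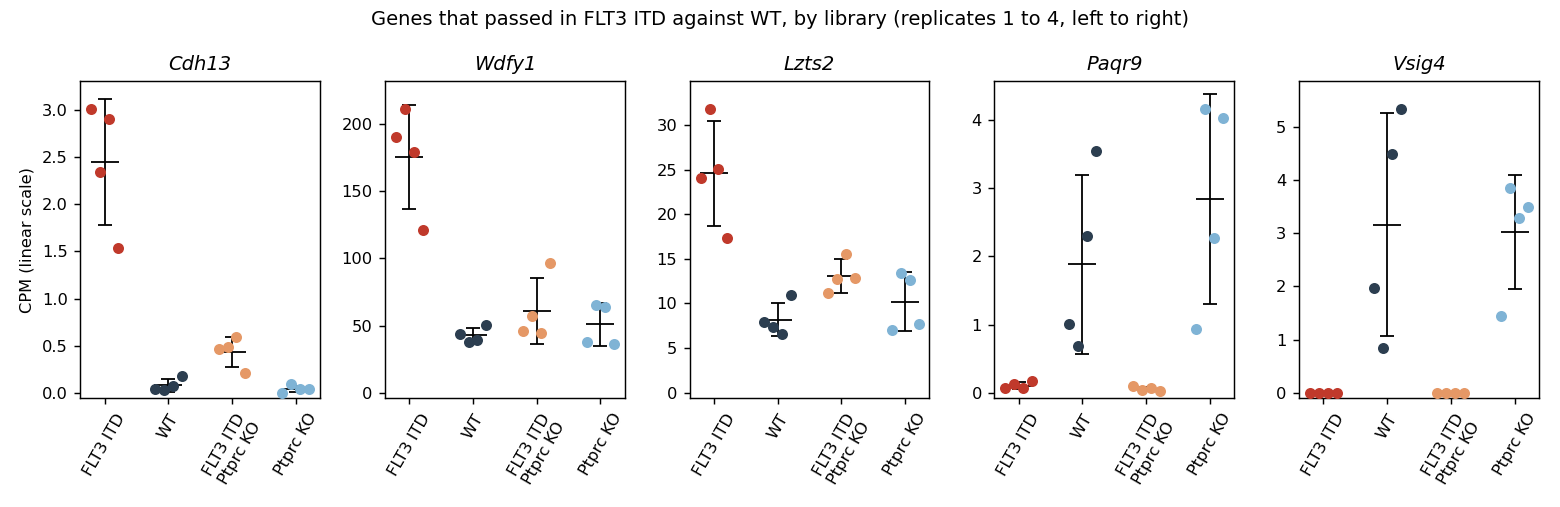
CPM on a linear scale in each of the 16 libraries for the 5 genes past an adjusted p of 0.05 in FLT3 ITD against WT. Points are replicates 1 to 4 from left to right, with the mean and SD in black; Vsig4 and Paqr9 lie near 0 in both FLT3 ITD groups, whereas Wdfy1 is highest in FLT3 ITD with Ptprc intact.

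The receptor change could be read a second time, in FLT3 ITD Ptprc KO against Ptprc KO, which shares no library with the first comparison. There 11 genes passed an adjusted p of 0.05 (0.0910%) and 2155 an unadjusted p of 0.05 (17.8%). The fold changes of the whole transcriptome did not run together: 42.2% of the genes tested had the same sign in both comparisons. Of the genes at an unadjusted p under 0.05, 211 were shared, which is 20.6% of the first set and 9.79% of the second, and 112 of these had opposite signs. The other 99 had the same sign, 40 with FLT3 ITD higher and 59 with it lower. In the second comparison as a whole, 8.75% of genes were higher and 9.07% lower at that p.

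Among the 99 were both genes that fell. Paqr9 stood at 0.0919, 0.0346, 0.0651 and 0.0300 CPM in FLT3 ITD Ptprc KO against 0.932, 4.16, 2.27 and 4.04 CPM in Ptprc KO (log2 fold change -5.57, SE 0.70, adjusted p = 0.00756, edgeR). Vsig4 again had 0 counts in all 4 FLT3 ITD Ptprc KO libraries and 321 counts over the Ptprc KO group (adjusted p = 0.0240, edgeR). For Cdh13 the direction was shared but the level was not: it stood at 0.460, 0.484, 0.586 and 0.210 CPM in FLT3 ITD Ptprc KO and at 0, 0.0876, 0.0378 and 0.0357 CPM in Ptprc KO (log2 fold change 3.40, SE 0.67, adjusted p = 0.0600, edgeR).

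Wdfy1 and Lzts2 did not pass in the second comparison. Wdfy1 stood at 46.0, 56.8, 44.7 and 97.0 CPM in FLT3 ITD Ptprc KO against 37.6, 65.5, 64.0 and 36.7 CPM in Ptprc KO, a log2 fold change of 0.26 (SE 0.27). The difference between its fold changes in the 2 comparisons was -1.77 on the log2 scale (unadjusted p = 0.000376, adjusted p = 0.245, edgeR interaction term), and that of Lzts2 was -1.22 (unadjusted p = 0.00306). Neither difference passed over all genes with edgeR, whereas both did with DESeq2. Both genes were chosen for their fold change in FLT3 ITD against WT, which is part of this difference. That choice alone can enlarge it, so no dependence on Ptprc is read from these tests. In edgeR the interaction had 2120 genes at an unadjusted p under 0.05 (17.5%) and 1 past the adjusted threshold (0.00827%), Rbm44, an RNA-binding protein gene named only after its value was seen.

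**Figure D3:**
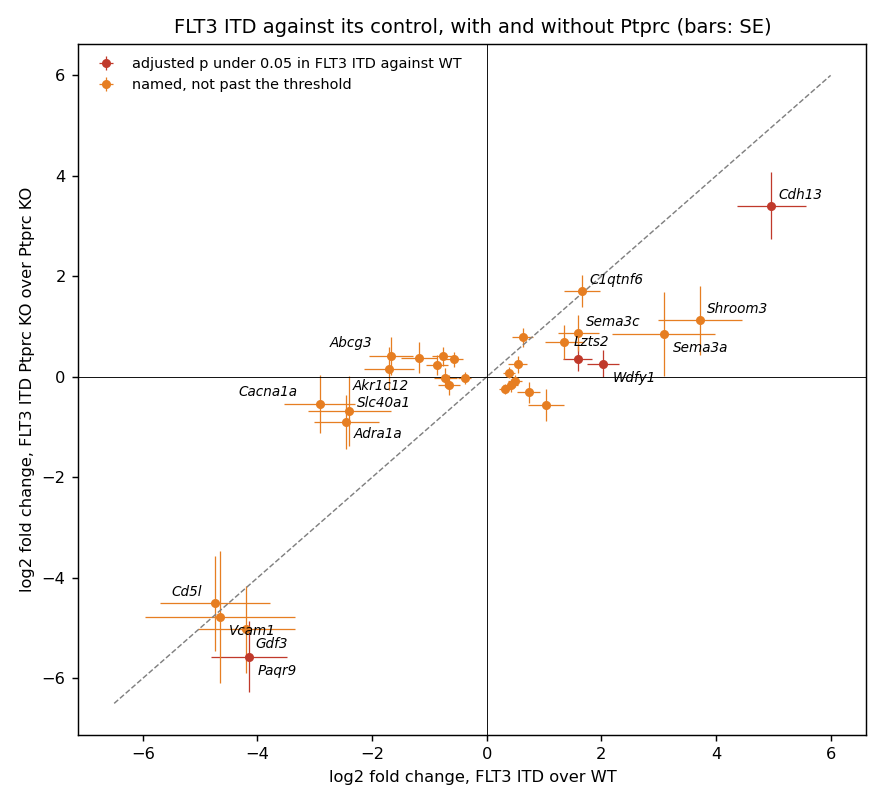
Log2 fold change of FLT3 ITD over WT (x axis) against that of FLT3 ITD Ptprc KO over Ptprc KO (y axis) for 32 named genes, with bars for the standard error and a dashed line of equal change. Cdh13, C1qtnf6, Paqr9, Gdf3, Cd5l and Vcam1 lie far from 0 on both axes, whereas Wdfy1 and Lzts2 lie near 0 on the y axis; Vsig4, at 0 counts in both FLT3 ITD groups, is not drawn.

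In 27 genes (0.223% of those tested) all 8 libraries that carry FLT3 ITD lay outside the range of all 8 that do not. They were found after the values were seen and are given as a description. In 19 of the 27 the carriers were lower. Of the 5 genes called above, Cdh13, Paqr9 and Vsig4 were among them.

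Of the 19, Vsig4, Cd5l and Timd4 are on the list of resident macrophage markers. Cd5l, a secreted macrophage protein that inhibits apoptosis, stood at 2.60, 2.30, 2.19 and 10.5 CPM in FLT3 ITD against 65.2, 35.2, 222 and 147 CPM in WT (log2 fold change -4.74, SE 0.96, adjusted p = 0.158, edgeR), and its log2 fold change in the second comparison was -4.50 (SE 0.95). Vcam1, a cell adhesion receptor, stood at 0.909, 0.606, 1.09 and 10.9 CPM in FLT3 ITD against 17.7, 12.3, 164 and 143 CPM in WT (log2 fold changes of -4.66 and, in the second comparison, -4.78). Gdf3, a ligand of the TGF-beta family, stood at 0.157, 0.433, 0.250 and 1.5 CPM in FLT3 ITD against 5.50, 1.94, 24.1 and 10.6 CPM in WT. In all 3 genes the highest FLT3 ITD library, replicate 4, was still below the lowest WT library. Gdf3 passed in the second comparison (log2 fold change -5.03, SE 0.87, adjusted p = 0.0453, edgeR), whereas its adjusted p in FLT3 ITD against WT was 0.158.

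Others of the 19 encode transporters, enzymes and receptors. Hpgd, which degrades prostaglandins, averaged 0.277 ± 0.180 CPM in FLT3 ITD and 7.24 ± 5.78 CPM in WT (SD, n = 4 each; log2 fold change -4.67, SE 0.93). Slco2b1, an organic anion transporter, averaged 0.109 ± 0.107 CPM in FLT3 ITD and 4.50 ± 4.50 CPM in WT, and Itgad, the integrin CD11d, 0.0391 ± 0.0591 CPM in FLT3 ITD and 3.73 ± 4.43 CPM in WT. Cd38, an NAD-degrading enzyme, averaged 0.470 CPM in FLT3 ITD and 3.85 CPM in WT. Slc1a3, a glutamate transporter, Dysf, a membrane repair protein, and Timd4, a receptor for dying cells, were of the same pattern, with log2 fold changes of -5.56, -3.44 and -4.14 in FLT3 ITD over WT. None of these 7 genes passed over all genes in FLT3 ITD against WT with edgeR, at adjusted p-values of 0.158 to 0.590. DESeq2 called all 7, at adjusted p-values of 2.17e-05 for Hpgd to 0.0444 for Cd38.

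Among the 8 genes in which the carriers were higher was C1qtnf6, which encodes a secreted protein related to complement C1q. It stood at 10.1, 9.49, 8.79 and 21.8 CPM in FLT3 ITD and at 4.32, 2.2, 4.81 and 4.48 CPM in WT (log2 fold change 1.66, SE 0.32, adjusted p = 0.158, edgeR). In FLT3 ITD Ptprc KO it stood at 11.4, 13.5, 9.90 and 12.2 CPM, against 3.64, 3.02, 2.80 and 4.93 CPM in Ptprc KO (1.71, SE 0.32, adjusted p = 0.0553). The fold changes of C1qtnf6 thus differed by 0.04 on the log2 scale between the comparisons. Ube2e2, a ubiquitin-conjugating enzyme, and Rras2, a small GTPase of the RAS family, had log2 fold changes of 0.62 and 0.75 in FLT3 ITD over WT and of 0.79 and 1.34 in FLT3 ITD Ptprc KO over Ptprc KO.

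At the bottom of the range, 6 genes had at most 3 counts over the FLT3 ITD group and at least 50 over WT, and no gene showed the reverse; this limit too was set after the values were seen. Beside Vsig4 they were Pcolce2, with 0 counts in FLT3 ITD and 58 in WT (at least 17.3-fold lower against the same floor), and Epor, the erythropoietin receptor, with 1 count in FLT3 ITD and 75 in WT (ratio of WT over FLT3 ITD 67.2, 95% counting interval 11.7 to 2690). Slc1a3 had 3 counts in FLT3 ITD and 172 in WT (ratio of WT over FLT3 ITD 51.4, interval 17.3 to 252). Lilra5, a leukocyte immunoglobulin-like receptor, had 2 counts in FLT3 ITD and 132 in WT, and Mrap, an accessory protein of the melanocortin receptor, 2 counts in FLT3 ITD and 91 in WT. The 5 genes other than Vsig4 did not pass over all genes with edgeR (adjusted p of 0.207 to 0.291), and DESeq2 called all 5, at adjusted p-values of 0.00304 for Slc1a3 to 0.0329 for Epor. WT libraries differed in these genes too: Epor ranged over 4 to 36 counts per WT library.

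Resident macrophage markers as a group were split. Of 17 listed, 16 were tested: 13 had negative log2 fold changes, with a median of -0.87, where the median of all genes was 0.04, and 1, Vsig4, fell; DESeq2 called Vsig4, Cd5l and Timd4. At an unadjusted p under 0.05, where 3.23% of all genes were lower and 5.23% higher, 6 of the 16 were lower in FLT3 ITD (Vsig4, Cd5l, Timd4, Cd163, Spic and Mertk) and Marco, a scavenger receptor, was higher. The complement genes C1qa, C1qb and C1qc, on the same list, had log2 fold changes of -0.28, 0.16 and -0.12.

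The per-library values show how these genes parted. C1qb, a subunit of complement C1q made by macrophages, stood at 109, 65.7, 122 and 1437 CPM in FLT3 ITD and at 173, 104, 910 and 370 CPM in WT, so FLT3 ITD replicate 4 was the highest of all 8. Spic, a transcription factor needed by iron-recycling macrophages of the spleen, stood at 7.14, 8.62, 8.47 and 13.9 CPM in FLT3 ITD and at 22.7, 13.2, 29.5 and 19.5 CPM in WT (log2 fold change -1.15, SE 0.40). Replicate 4, with more C1qb than any WT library, thus had 0 counts of Vsig4 and less Cd5l, Vcam1 and Timd4 than any WT library. Timd4 was scarce, at 0.125, 0.0433, 0.0313 and 0.0416 CPM in FLT3 ITD and at 0.311, 0.371, 1.75 and 2.24 CPM in WT. Summed over the list, macrophage markers ranged over 241 to 4036 CPM in FLT3 ITD and 494 to 3624 CPM in WT. Without FLT3 ITD replicate 4 the median of the list was -2.14, and with replicates 1 and 3 summed and 2 left out it was -0.081. In the second comparison 9 of the 16 were positive, with a median of 0.43. The part that the share of macrophages in each culture has in these values was not tested.

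**Figure D4:**
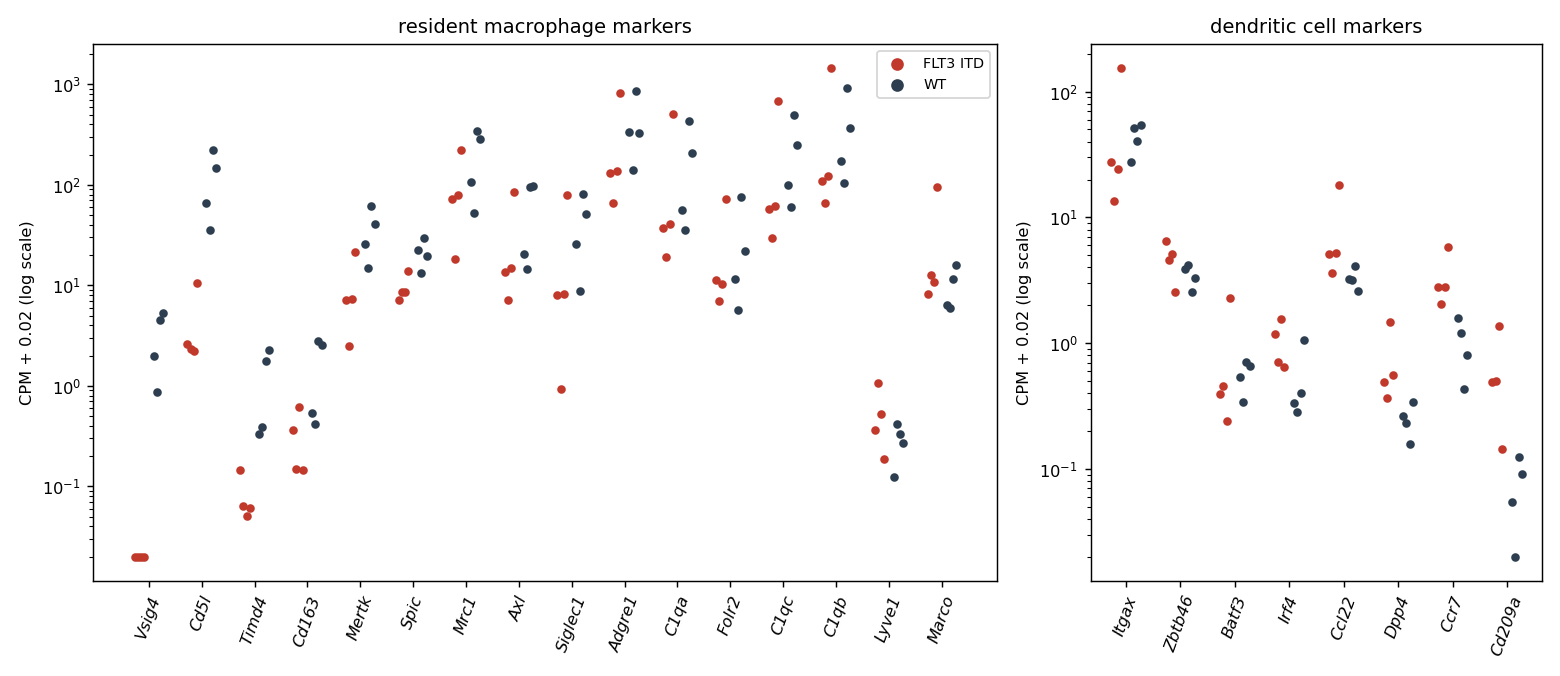
CPM of the tested resident macrophage markers (left) and dendritic cell markers (right) in the 4 FLT3 ITD and 4 WT libraries, on a log scale after adding 0.02. Vsig4, Cd5l and Timd4 are lower in all 4 FLT3 ITD libraries, whereas for C1qa, C1qb and C1qc the highest of the 8 points is a FLT3 ITD library.

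The promoters of Vsig4, Cd5l and Timd4 are shown because these macrophage genes were among the lowest in the FLT3 ITD libraries. They run from 250 bases before to 50 after the start of the gene (RefSeq, build GRCm38.p6), 5′ to 3′ on the gene's strand, with capitals marking GAGGAA or its reverse complement TTCCTC, the core letters bound by PU.1, the myeloid transcription factor that both macrophages and osteoclasts need. The Vsig4 sequence is chrX:96293389-96293688 on the minus strand, the Cd5l sequence chr3:87357631-87357930 on the plus strand and the Timd4 sequence chr11:46810549-46810848 on the plus strand.
Vsig4: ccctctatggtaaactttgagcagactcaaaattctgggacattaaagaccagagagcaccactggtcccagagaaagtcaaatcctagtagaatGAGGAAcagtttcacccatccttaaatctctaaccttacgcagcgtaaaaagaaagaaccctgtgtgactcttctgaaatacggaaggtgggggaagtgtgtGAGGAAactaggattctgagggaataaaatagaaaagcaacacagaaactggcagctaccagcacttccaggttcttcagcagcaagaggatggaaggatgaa
Cd5l: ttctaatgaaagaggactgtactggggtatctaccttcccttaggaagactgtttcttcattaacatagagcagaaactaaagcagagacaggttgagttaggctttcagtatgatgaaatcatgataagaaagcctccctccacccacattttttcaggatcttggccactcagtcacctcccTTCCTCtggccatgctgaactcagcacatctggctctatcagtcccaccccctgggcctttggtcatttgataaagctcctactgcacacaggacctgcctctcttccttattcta
Timd4: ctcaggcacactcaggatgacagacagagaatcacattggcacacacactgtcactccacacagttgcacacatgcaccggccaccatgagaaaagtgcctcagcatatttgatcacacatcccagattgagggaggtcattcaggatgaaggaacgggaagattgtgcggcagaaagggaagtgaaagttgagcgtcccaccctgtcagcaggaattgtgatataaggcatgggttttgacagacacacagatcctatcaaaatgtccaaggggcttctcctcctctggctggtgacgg
The core letters occurred at 2 places in the Vsig4 window, at 1 in that of Cd5l and at none in that of Timd4. On either strand, 28.3% of 32851 mouse promoters hold them, and 7 of the 13 resident macrophage genes with a promoter in the table did. The letters TTCNNNGAA, to which STAT factors bind, were in 8.30% of all promoters and in none of these 13. A match is a description of the sequence only, and no motif was tied to a change.

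Of 12 dendritic cell markers listed, 8 were tested and all 8 had positive log2 fold changes (median 1.16), where 54.5% of all genes did. At an unadjusted p under 0.05, 4 of the 8 were higher, where 5.23% of all genes were, and none passed over all genes with edgeR or DESeq2. Ccr7, the chemokine receptor of migrating dendritic cells, stood at 2.79, 2.04, 2.75 and 5.79 CPM in FLT3 ITD and at 1.56, 1.19, 0.412 and 0.782 CPM in WT (log2 fold change 1.75, SE 0.60). Dpp4, a cell-surface protease, had a log2 fold change of 1.61 (SE 0.62), and Ccl22, a chemokine of dendritic cells and macrophages, one of 1.29 (SE 0.52). Cd209a, a lectin of dendritic cells, was at 0.470, 0.476, 1.34 and 0.125 CPM in FLT3 ITD against 0.0346, 0, 0.103 and 0.0711 CPM in WT (3.51, SE 1.1). The list score, the mean log2 CPM of the tested members, was 1.09, 0.67, 1.35 and 1.62 in FLT3 ITD and 0.25, 0.14, 0.16 and 0.51 in WT, so the groups did not overlap. Levels were low, and the summed markers overlapped, at 25.6 to 183 CPM in FLT3 ITD and 37.0 to 63.1 CPM in WT, most of it Itgax, an integrin shared with macrophages. On the TPM scale the list had a median of 0.11 and all genes one of -0.21.

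Of 9 tested progenitor markers, 4 had positive and 5 negative log2 fold changes, with a median of -0.43. The median was 0.14 without WT replicate 3 and 0.84 on the TPM scale. In 2 of the 9, Cd34 and Gata2, the FLT3 ITD libraries lay wholly above WT, as in 2.89% of all genes. Cd34, a surface protein of blood stem and progenitor cells, stood at 1.57, 2.04, 2.66 and 1.12 CPM in FLT3 ITD and at 0.380, 0.504, 0.412 and 0.355 CPM in WT. Gata2, a transcription factor of progenitors and mast cells, stood at 3.57, 5.85, 3.47 and 1.83 CPM in FLT3 ITD and at 0.726, 1.03, 0.584 and 1.60 CPM in WT. Neither passed over all genes with edgeR (log2 fold change of Cd34 2.15, SE 0.47; of Gata2 1.90, SE 0.63), and DESeq2 called Cd34 (adjusted p = 0.00799). Kit, the stem cell factor receptor, was at 0.63 (SE 0.42), and Meis1, a stem cell transcription factor, at -0.76 (SE 0.34). Markers of mast cells and basophils were all too low to be tested.

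Osteoclast genes themselves did not separate the genotypes. All 17 tested genes of the resorption machinery had positive log2 fold changes (median 0.32), where 54.5% of all genes did, but none was at an unadjusted p under 0.05 and none had groups that did not overlap. Ctsk had a log2 fold change of 0.52 (SE 0.60), Acp5, the acid phosphatase TRAP, 0.43 (SE 0.55), and Atp6v0d2, a proton pump subunit needed for fusion, 0.21 (SE 0.53). The score of the list was 10.54, 10.66 and 10.50 in FLT3 ITD replicates 1 to 3 and 9.18 in replicate 4, against 9.85 to 10.16 in WT. The first 3 FLT3 ITD libraries thus lay above all WT libraries and the fourth below them. Without replicate 4 the median was 0.56, and without replicate 2 it was 0.20. Its sign turned with replicates 1 and 3 summed and 2 left out (-0.048). The TPM scale shifted every gene's typical value down, to an all-gene median of -0.21. The resorption median of -0.010 on that scale thus remained above the all-gene one. In the second comparison all 17 were negative, with a median of -0.99.

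Of 19 genes of osteoclast fusion and identity, 11 were positive (median 0.10). On the TPM scale the fusion and identity median was -0.30, below the all-gene median of -0.21. Dcstamp, the fusion receptor, stood at 780, 1147, 755 and 225 CPM in FLT3 ITD and at 390, 764, 368 and 594 CPM in WT. Nfatc1, the master transcription factor of osteoclasts, had a log2 fold change of -0.29 (SE 0.51), and Csf1r, the M-CSF receptor, one of 0.10 (SE 0.25). At an unadjusted p under 0.05, 1 of the 19 was higher, where 5.23% of all genes were. The same gene was the 1 of 19 that lay wholly higher in FLT3 ITD, as 2.89% of all genes did. It was Cd9, a tetraspanin that takes part in cell fusion, at 393, 558, 380 and 671 CPM in FLT3 ITD against 310, 355, 342 and 330 CPM in WT. Its groups did not overlap (0.58, SE 0.21, unadjusted p = 0.0139), and its log2 fold change in the second comparison was 0.52.

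In FLT3 ITD against WT, genes of pathways downstream of the receptor gave no call with edgeR or DESeq2. Of 11 tested STAT5 targets 9 were positive (median 0.25), with 0 at an unadjusted p under 0.05. Of 15 tested genes of ERK feedback 8 were positive, and Dusp6, the phosphatase that ERK induces against itself, was at 62.2, 68.4, 61.2 and 111 CPM in FLT3 ITD against 24.3, 38.9, 41.8 and 67.0 CPM in WT (0.81, SE 0.30, unadjusted p = 0.0171). WT replicate 4 lay within the FLT3 ITD range. Of 17 genes of FLT3 signalling and its brakes 13 were negative, with a median of -0.08. Without FLT3 ITD replicate 4 the medians of the STAT5 and ERK lists were -0.50 and -0.28. In the second comparison the medians of the STAT5, ERK and FLT3 signalling lists were 0.77, 0.86 and 0.06, and Dusp6 was at 0.71 (SE 0.30). There DESeq2 called Socs2 of the STAT5 list, Spry1 of the ERK list and Cblb of the FLT3 signalling list, all lower with FLT3 ITD. It also called Socs2 in the interaction.

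Metabolic and proliferation lists moved with single libraries. All 25 genes of oxidative phosphorylation had positive log2 fold changes (median 0.54), and the score was 8.01, 8.84, 8.01 and 7.12 in FLT3 ITD replicates 1 to 4, against 7.34 to 7.89 in WT. Replicate 2, the library with the length trend, was the highest. The median was 0.09 without it, 0.28 with the length trend removed, and -0.019 with replicates 1 and 3 summed and 2 left out. Of the 25 genes, 1 lay wholly higher in FLT3 ITD, where 2.89% of all genes did. It was Ndufs8, a subunit of complex I, at 77.6, 162, 78.8 and 78.8 CPM in FLT3 ITD and 58.6, 53.7, 69.3 and 57.7 CPM in WT. Of 24 cell cycle genes 22 were negative (median -0.35), and only FLT3 ITD replicate 4 had a low score, at 4.04, against 6.01 to 6.04 in replicates 1 to 3 and 5.76 to 6.25 in WT. Of 11 MHC class II genes 10 were positive (median 0.67), and H2-Aa stood at 80.8, 46.9, 93.5 and 989 CPM in FLT3 ITD against 26.7, 9.23, 185 and 46.3 CPM in WT. Without FLT3 ITD replicate 4 the median of that list was 0.08. Of the cell cycle genes 2 of 24 lay wholly lower in FLT3 ITD, where 3.20% of all genes did. Of the MHC class II genes 1 of 11 lay wholly higher, where 2.89% of all genes did.

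**Figure D5:**
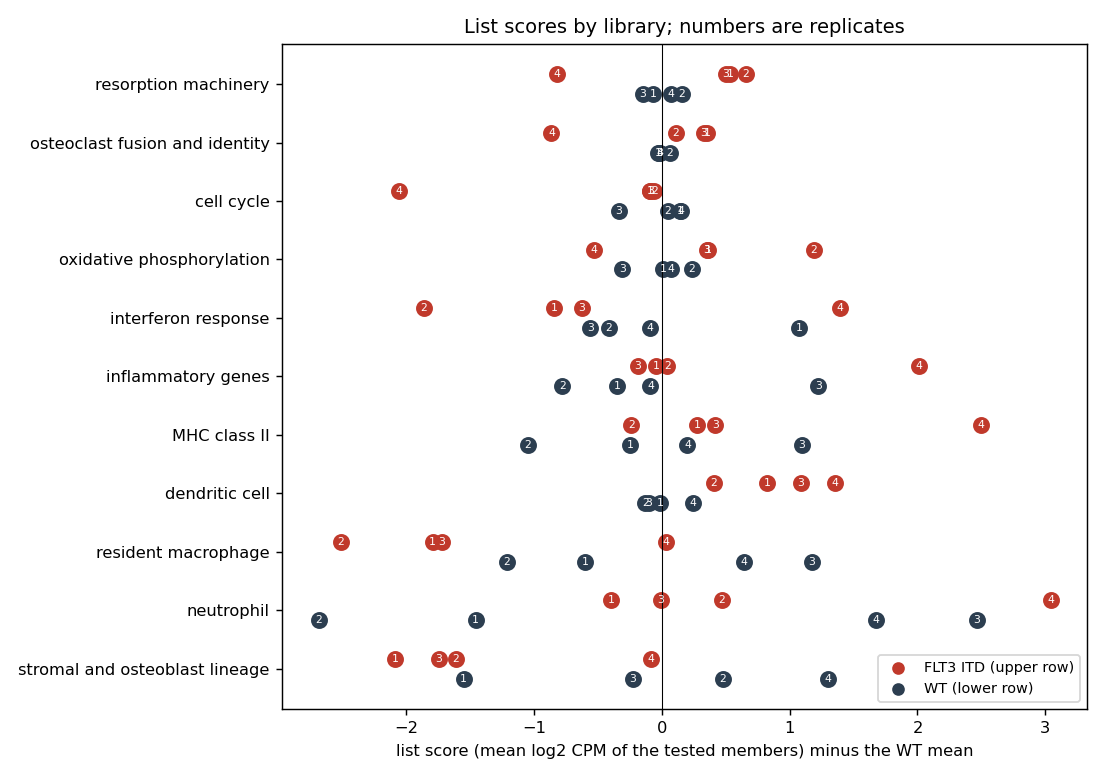
List scores (mean log2 CPM of the tested members, minus the WT mean) in each library; red points above are FLT3 ITD, dark points below are WT, and the numbers are replicates. FLT3 ITD replicate 4 lies far from replicates 1 to 3 in most lists, and the dendritic cell list is the 1 drawn in which the groups do not overlap.

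Stromal and osteoblast-lineage markers were scarce in all libraries, summing to 20.7 to 43.6 CPM in FLT3 ITD and 21.6 to 67.2 CPM in WT. Of 8 tested, 6 were negative (median -2.41), and 4 collagen and matrix genes (Col1a1, Col1a2, Sparc and Postn) were lower at an unadjusted p under 0.05, where 3.23% of all genes were. In the second comparison all 8 were positive, with a median of 0.31. Postn was at 0.0940, 0.260, 0.125 and 0.874 CPM in FLT3 ITD and 0.104, 1.33, 0.687 and 4.73 CPM in WT, with overlapping groups. Slc40a1, the iron exporter ferroportin, stood at 14.9, 9.83, 16.6 and 39.6 CPM in FLT3 ITD and at 64.3, 75.1, 136 and 151 CPM in WT (log2 fold change -2.40, SE 0.73, adjusted p = 0.590, edgeR). The other 10 iron-handling genes had unadjusted p-values above 0.05. Eosinophil markers were split: of 4 tested, 2 were positive and 2 negative, with a median of 0.02. Ear2, an eosinophil-associated ribonuclease, was at 0, 0.0433, 0.0313 and 0.624 CPM in FLT3 ITD and 0.380, 0.663, 5.05 and 3.23 CPM in WT (-3.78, SE 1.16, adjusted p = 0.590).

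The other genes named for a low unadjusted p had varied roles. Sema3a, a semaphorin that inhibits osteoclast formation in mice, was at 21.7, 15.6, 22.1 and 4.62 CPM in FLT3 ITD and at 1.28, 1.70, 1.20 and 3.34 CPM in WT (log2 fold change 3.09, SE 0.90, adjusted p = 0.590, edgeR). Sema3c, of the same family, was at 16.6, 13.5, 16.4 and 32.1 CPM in FLT3 ITD and at 4.56, 6.95, 7.94 and 6.43 CPM in WT (1.60, SE 0.37, adjusted p = 0.280). Shroom3, an actin-binding protein of cell shape, was at 9.34, 27.6, 9.63 and 3.29 CPM in FLT3 ITD against 0.484, 0.928, 0.618 and 1.74 CPM in WT (3.72, SE 0.73, adjusted p = 0.158).

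In the other direction, Cacna1a, a calcium channel subunit, stood at 0.627, 0.520, 0.938 and 3.08 CPM in FLT3 ITD and at 10.9, 11.4, 12 and 4.58 CPM in WT (log2 fold change -2.92, SE 0.62, adjusted p = 0.206, edgeR). Abcg3, a transporter of the ABC family, was at 13.3, 6.06, 15.1 and 11.1 CPM in FLT3 ITD and at 28.2, 22.9, 29.5 and 65.2 CPM in WT (-1.67, SE 0.38, adjusted p = 0.283). Spice1, a centriole protein, averaged 5.55 ± 0.786 CPM in FLT3 ITD and 9.46 ± 0.944 CPM in WT (SD, n = 4 each). Abcg3, Spice1 and Marveld1 were lower in the 4 FLT3 ITD libraries than in all 12 others.

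For some of the named genes it was WT that stood apart. Akr1c12, an aldo-keto reductase, was at 9.74, 4.76, 2.75 and 1.75 CPM in FLT3 ITD and at 17.8, 20.1, 12.1 and 12.3 CPM in WT, but it lay at 1.83 to 4.17 CPM in the 8 libraries with the Ptprc knockout. Ero1b, an oxidoreductase of the endoplasmic reticulum, lay at 10.2 to 21.6 CPM in FLT3 ITD, at 25.1 to 32.4 CPM in WT, and at 12.3 to 19.5 CPM in the 8 libraries with the Ptprc knockout. Trim16 shared this pattern. In Emc10 it was WT that lay lowest, at 51.7 to 54.62 CPM, against 59.1 to 81.7 CPM in FLT3 ITD. The 8 libraries with the Ptprc knockout lay at 54.66 to 62.7 CPM for Emc10, just above the highest WT library. Of the 33 named genes other than Flt3 and Ptprc, the 4 FLT3 ITD libraries lay outside the 12 others in 9 (0.438% of all genes) and the 4 WT libraries in 4 (0.124% of all genes). Most of the 33 were chosen because FLT3 ITD and WT did not overlap, so nothing is read from these counts.

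Of the 15 genes named for a low unadjusted p with higher levels in FLT3 ITD, 10 had the same sign in the second comparison, and of the 15 with lower levels, 9 did. Over all genes without overlap, 120 of 349 and 116 of 387 had the same sign. Tests of the difference gave an unadjusted p under 0.05 for 8 of the first 15 and 9 of the second 15. Over all genes without overlap they did so for 174 of 349 and 194 of 387, and over all genes tested for 17.5%. Each test holds the FLT3 ITD against WT difference by which these genes were chosen, so nothing is read from these counts. Of the named genes, none passed the test of the difference over all genes with edgeR, and DESeq2 called Wdfy1, Lzts2 and 8 of the other 28.

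Genes that are known to differ between C57BL/6 substrains or colonies were listed separately. Wdfy1, given above, is 1 of them. Ide, which encodes insulin-degrading enzyme and whose copy number is known to vary within C57BL/6J colonies, was at 222, 150, 233 and 174 CPM in FLT3 ITD and at 98.9, 176, 97.5 and 108 CPM in WT (log2 fold change 0.70, SE 0.19, unadjusted p = 0.00232). WT replicate 2 lay with the FLT3 ITD libraries. Fgfbp3, the neighbour of Ide in the same variable segment of chromosome 19, was at 2.01, 2.60, 1.78 and 2.25 CPM in FLT3 ITD and at 0.726, 1.38, 0.721 and 1.03 CPM in WT (1.15, SE 0.30, unadjusted p = 0.00182). It was chosen after the values of Ide were seen. Nnt, a mitochondrial transhydrogenase, was low in both groups, at 0.219 to 0.780 CPM in FLT3 ITD and 0.212 to 0.380 CPM in WT. Whether a difference in background moves with the genotypes was not tested. Within 10 Mb of Flt3 on chromosome 5, 6 of 136 tested genes were at an unadjusted p under 0.05 (4.41%), where 8.45% of all genes were. In that region 0 passed, and the median log2 fold change was 0.02.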

How the data were processed

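RNA was sequenced in 16 osteoclast libraries, 4 per genotype. The authors deposited raw counts per gene, which were tested here, and a second table of TPM (deposited values scaled to gene length and library total), used only as an alternative. The deposited TPM lay within 10% of TPM computed here from the counts and lengths for 97.3 to 98.3% of genes with 50 counts or more, but were not identical, and the reads behind them are unknown here. Gene length, the other quantity in the deposited tables, served for the length trend. Per the labels' protocols, poly(A) RNA went into a directional kit with adaptors carrying unique molecular identifiers. Per the submitters' processing notes the build was GRCm38.p6, and featureCounts 2.0.3, UMI-tools 1.1.1, STAR 2.7.6a, cutadapt 4.2 and bcl2fastq 2.20.0.422 are listed without settings or order. Positions came from the GENCODE annotation of that build (21894 gene IDs matched).

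edgeR 4.0.16 in R 4.3.3 fitted the 4 group means over all 16 libraries (TMM factors, filterByExpr, robust quasi-likelihood test, two-sided, Benjamini-Hochberg adjustment, threshold 0.05). The fit had 12 residual degrees of freedom and a common dispersion of 0.137 (coefficient of variation 0.370). CPM use TMM-scaled totals, and log2 CPM a prior count of 2. Each standard error is the fold change divided by the root of its F statistic. Total counts were 24211724 to 35773313 per library. Intervals and the floor of 3 counts cover counting error only. In simulated counts for FLT3 ITD against WT (12001 genes), changes were planted only in genes averaging at least 50 counts. Changes of 2-fold were recovered at 35.8%, of 4-fold at 82.1% and of 8-fold at 93.9%. These rates do not cover scarcer genes such as Cdh13, Paqr9 and Vsig4. Of 151 calls 10 were false, and the simulated libraries lacked any that stand apart from their group.

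Named genes were Flt3, Ptprc, those past the threshold, and up to 15 each way with the lowest unadjusted p among genes averaging 5 CPM or more whose groups did not overlap, without predicted models and Y-linked genes, plus examples from 31 lists (54 members had no test). The members and lists were chosen with earlier results of these data known. Other settings tried were DESeq2 1.42.0, RLE factors, the unfiltered table, genes averaging at least 50 counts, voom with quality weights and limma 3.58.1 on log2(TPM + 1) above a mean TPM of 1, a replicate block, only the 2 groups compared, FLT3 ITD replicates 1 and 3 summed (also without replicate 2), the length trend removed, and each library left out in turn. Summing replicates 1 and 3 and leaving out 4 was added after seeing the data.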

Additional observations from a re-analysis of the deposited data

Results flagged for a closer look

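In 18 of 120 groups of 4 values checked (the list scores and the named genes, in FLT3 ITD and in WT), 1 library lay far from the other 3 of its group. Chance alone flags about 1 group in 20 where the 4 values are independent. FLT3 ITD replicates 1 and 3 were the closest pair of all 16 libraries, and lists and genes can move together. The 18 of 120 are therefore not set against that rate. FLT3 ITD replicate 4 was that library in 9 of the 18. In log2 CPM, its resorption score was 9.18 where the other 3 lay at 10.5 to 10.7, and its cell cycle score was 4.04 where they lay at 6.01 to 6.04. Its scores were higher than the other 3 for genes that repress osteoclast formation (5.67, against 4.10 to 4.23), STAT5 targets (3.85, against 2.38 to 2.44), ERK feedback (4.96, against 3.33 to 3.54), inflammatory genes (4.56, against 2.36 to 2.59) and iron handling (8.44, against 7.87 to 7.96). Replicate 4 was also apart in C1qtnf6, at 4.45, and in Cd5l, at 3.40 on the log2 CPM scale.

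FLT3 ITD replicate 2, the library whose values fell with gene length, was apart in the score of FLT3 signalling and its brakes, at 5.99 against 6.52 to 6.60, and in Ndufs8, at 7.34 against 6.28 to 6.30.

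Among WT libraries, replicate 1 was apart in the coupling factor score (5.41, against 5.14 to 5.18) and in Snx33, a sorting nexin (3.07, against 2.54 to 2.61). WT replicate 2 was apart in osteoclast fusion and identity (7.96, against 7.87 to 7.88) and in C1qtnf6 (1.18, against 2.13 to 2.29). WT replicate 3 was apart in the substrain genes (3.40, against 3.62 to 3.64). WT replicate 4 was apart in Cacna1a (2.22, against 3.45 to 3.60) and in Trim16 (3.92, against 4.11 to 4.12). What sets these libraries apart was not tested.

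Rbm44 was flagged because its response to the receptor change differed between the comparisons (interaction 6.54 on the log2 scale, SE 0.88, adjusted p = 0.0309, edgeR). It held 44 counts over FLT3 ITD and 86 over WT, and 91 over FLT3 ITD Ptprc KO and 1 over Ptprc KO, so the size of the interaction depends on the prior count.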

How the results depend on the processing

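The number of calls in FLT3 ITD against WT, 5 genes, was 5 with RLE factors, 5 without a filter and 4 with limma on log2(TPM + 1). It was 1 with a mean count of at least 50, 60 with DESeq2, 1898 with voom with quality weights, 0 in the fit of only the 2 groups compared (574 at an unadjusted p under 0.05) and 2 with the length trend removed. These counts do not all cover the same genes. With limma on log2(TPM + 1), Wdfy1 and Vsig4 passed, Lzts2 did not (adjusted p = 0.0811), and the filter removed Cdh13 and Paqr9. A mean count of at least 50 removed Cdh13, Paqr9 and Vsig4, and there Wdfy1 passed and Lzts2 did not (edgeR adjusted p = 0.0905). Summing FLT3 ITD replicates 1 and 3 gave 1, leaving out replicate 2 as well gave 0 (381 at an unadjusted p under 0.05), and leaving out replicate 4 as well gave 1. Voom gave replicates 1 and 3 weights of 8.47 and 9.74, and replicates 2 and 4 weights of 0.120 and 0.151. Leaving out each library gave 0 to 3 calls; FLT3 ITD against WT had 0 without WT replicate 1 (510 at an unadjusted p under 0.05) or 3 (806), 1 without WT replicate 4 or FLT3 ITD replicate 1, 2 or 3, and 3 without WT replicate 2 or FLT3 ITD replicate 4. The cause of these changes was not tested.

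The 11 calls in FLT3 ITD Ptprc KO against Ptprc KO became 3 with a mean count of at least 50, 332 with DESeq2, 6966 with voom, 0 in the fit of only these groups (1778 at an unadjusted p under 0.05), and 2 to 786 with each library left out, 786 of them without FLT3 ITD Ptprc KO replicate 3. The interaction, 1 call, had 0 with a mean count of at least 50, with limma on log2(TPM + 1) and with each way of summing replicates 1 and 3. It had 165 with DESeq2, 7283 with voom and 0 to 56 with each library left out, 17 without FLT3 ITD replicate 4 and 56 without FLT3 ITD Ptprc KO replicate 3.

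Replicate numbers are shared by the groups, but the deviations of same-numbered FLT3 ITD and WT libraries correlated at 0.24, 0.47, -0.53 and -0.07, so they were not taken as pairs. With the replicate block, FLT3 ITD against WT had 0 calls (937 at an unadjusted p under 0.05; DESeq2, without the block, called 60), FLT3 ITD Ptprc KO against Ptprc KO had 47, and the interaction 0 (2260 at an unadjusted p under 0.05).

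The sign of Ptprc turned: its log2 fold change was 0.076 with FLT3 ITD replicates 1 and 3 summed and 2 left out, 0.11 with the length trend removed, and 0.0086 without FLT3 ITD replicate 2. Over the fits that left out 1 library it ranged over -0.36 to 0.0086. That of Flt3 was 0.20 without WT replicate 1, and ranged over -0.77 to 0.20 with each library left out. The 28 other named genes outside the calls kept their sign in all 559 refits; 45 of these, all with DESeq2, voom or TPM, passed the threshold. TPM shifted the median of all genes to -0.21. Whether genes near the limit of detection, such as Flt3, differ was not detectable at this depth.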

Other observations

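The 100 genes with the lowest unadjusted p in FLT3 ITD against WT were spread over the chromosomes. Chromosome 13 held 10 of them, where it holds 3.88% of the genes tested, and chromosome 5, which carries Flt3, held 9, where it holds 6.32%.

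X-linked members of the Xlr4 cluster lay higher in FLT3 ITD. Xlr4b averaged 12.1 ± 6.23 CPM in FLT3 ITD and 4.73 ± 1.35 CPM in WT (SD, n = 4 each; log2 fold change 1.35, SE 0.35, adjusted p = 0.376, edgeR). Its neighbour Xlr4c averaged 5.09 ± 2.86 CPM in FLT3 ITD and 1.24 ± 0.361 CPM in WT (2.03, SE 0.42, adjusted p = 0.158); it was chosen after its values were seen. In both genes the highest library was FLT3 ITD replicate 2. These are near-identical genes of one family, so how the authors' counting shared reads between them is uncertain.

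Of 14 tested inflammatory genes 10 had positive log2 fold changes in FLT3 ITD over WT (median 0.57), and 11 did in the second comparison (median 1.09). Nos2, the inducible nitric oxide synthase, was at 0.219, 0.130, 0.0625 and 0.333 CPM in FLT3 ITD and at 1.59, 0.345, 0.412 and 0.426 CPM in WT. These levels were low, and Nos2 did not pass in FLT3 ITD against WT with edgeR or DESeq2. In FLT3 ITD Ptprc KO over Ptprc KO its log2 fold change was 2.65, against -1.89 in FLT3 ITD over WT.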
